A study of Mus musculus with 4 samples.

Results

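The REG family of secreted C-type lectins was examined in CD8αβ+ IELs and CD8αβ+ SPLs. Its members on the array were *Reg1*, *Reg2*, *Reg3a*, *Reg3b*, *Reg3d*, *Reg3g* and *Reg4*, which are 7 of the 27376 gene names on the array, and they were taken as all non-control probes that carry one of these names. Each gene had 1 probe with 1 spot. CD8αβ+ IELs (T cells located between the epithelial cells of the small intestine) and CD8αβ+ SPLs (splenocytes) were sorted by flow cytometry as CD45+ CD3+ CD8α+ CD8β+ TCRβ+ cells from male wild-type C57BL/6 mice aged between 8 and 12 weeks, with neither group treated. Each sample was a pool of several mice, and each group had 2 samples, with 1 Agilent array of the whole mouse genome (1 color) per sample. The comparison asks whether CD8αβ+ IELs carry more transcript of these antimicrobial lectins than CD8αβ+ SPLs.

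REG proteins consist of a signal peptide and 1 C-type lectin domain. In the small intestine, RegIIIγ binds the peptidoglycan of Gram-positive bacteria and helps to keep bacteria away from the surface of the epithelium, and RegIIIβ acts on Gram-negative bacteria as well. Enterocytes and Paneth cells are a known source, and γδ T cells among the IELs have been described as another. In the epithelium IL-22 (through STAT3) and bacterial signals (through MyD88) induce both genes. *Reg1* and *Reg2* are best known from the pancreas, as is *Reg3d*, and *Reg4* is known from enteroendocrine and other secretory cells of the gut.

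The probes are given first, since each REG value rests on a single one of them and the genes are paralogs. The lines below show the first 30 of the 60 bases of each probe for the members with signal, in lower case, 5′ to 3′, as the scanner files list them.
Reg3g: gagtacagaattgacatcatgggttgatat
Reg3b: gtgaagactcacctagaaaaagcattttct
Reg3a: cccatgacaagggatgaaatacaagaattc
Reg1: ggaccatctatcaaaagcaaattagatcct
Reg4: gcattgcgctgagatgaaccccaaggataa
On mm9, these probes lie at chr6:78416420-78416479 for *Reg3g* (minus strand), chr6:78323323-78323382 for *Reg3b* (plus strand), chr6:78333635-78333694 for *Reg3a* (plus strand), chr6:78378527-78378586 for *Reg1* (plus strand) and chr3:98037005-98040251 for *Reg4* (plus strand). The *Reg4* probe spans 3247 bases of the genome with its 60 bases, so it crosses at least 1 intron. The probes of *Reg3d* (chr6:78326006-78326065, minus strand) and *Reg2* (chr6:78357959-78358018, plus strand) lie in the same stretch of chromosome 6, where the 6 probes cover 93.2 kb. In the RefSeq annotation of GRCm38.p6 the 6 genes follow each other in the order *Reg3b*, *Reg3d*, *Reg3a*, *Reg2*, *Reg1* and *Reg3g*, with 0 other protein-coding genes between them. Over the 21 pairs of REG probes, the longest run of bases shared by a pair was between 5 and 8 bases. None of the 7 probes shared a run of 20 bases on either strand with another probe of the array. Transcript sequences were not used here, so the match of a probe to the transcripts of the other family members was not tested.

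The arrays had features that touch each REG value. IEL replicate 1 and SPL replicate 2 were on slide 1, and IEL replicate 2 and SPL replicate 1 were on slide 2. Pearson's r over 27911 probes was 0.946 between the IEL replicates, 0.986 between the SPL replicates, 0.911 between the arrays of slide 1 and 0.992 between those of slide 2, so the array of IEL replicate 2 resembled that of SPL replicate 1 more than that of its own replicate. All 10 CD8 T cell markers were well above background on each array. The summed level of 8 genes of intestinal T cells (*Gzmb*, *Gzma* and *Itgae* are the brightest in IEL replicate 1), as intensity over the 75th percentile of the array, was 942 in IEL replicate 1, 336 in IEL replicate 2, and 163 (replicate 1) and 62 (replicate 2) on the SPL arrays. Of these 8 genes, *Cd69* overlapped between the groups, with 5.02 and 4.75 in CD8αβ+ IELs and 4.84 and 5.13 in CD8αβ+ SPLs on the log2 scale. Of 7 neutrophil markers, 1 was well above background in IEL replicate 1 and 6 on each of the other 3 arrays. The summed levels, with the IEL replicates first and in order, were 3.6, 20.6, 26.5 and 20.2 for 6 B cell markers, 0.976, 9.63, 12.5 and 4.85 for 7 macrophage markers, and 51.9, 203, 222 and 237 for 6 genes of recirculating T cells. Of the last 6 genes, *Klf2* overlapped between the groups, with 5.33 and 6.24 against 5.83 and 5.57 on the log2 scale. Values are therefore given per array, within each slide, and without IEL replicate 2.

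*Reg3g* and *Reg3b* were the REG genes with the brightest probe signal in CD8αβ+ IELs, and for both genes each IEL array exceeded each SPL array. The processed intensity of *Reg3g* (with the error that the scanner software gives for the spot) was 802.5 ± 80.3 units in IEL replicate 1, 98.4 ± 9.96 in IEL replicate 2, and 38.2 ± 4.08 (replicate 1) and 21.4 ± 2.69 (replicate 2) on the SPL arrays. The corresponding normalized levels, as log2 intensity minus the 75th percentile of the array, were 1.36, -2.14, -3.65 and -4.82. IEL replicate 1 stood 3.51 log2 units (11.4-fold) above IEL replicate 2, which was closer to both SPL arrays than to its own replicate. The mean level was -0.39 ± 2.48 (SD, n = 2) in CD8αβ+ IELs and -4.23 ± 0.83 (SD, n = 2) in CD8αβ+ SPLs, so that they differed by 3.84 ± 1.27 (SE) on the log2 scale, or 14.4-fold (limma, adjusted p 0.634). The difference thus did not pass the correction over 27911 probes, where 0 probes were higher and 0 lower in CD8αβ+ IELs (0% called in each direction, and at an unadjusted p under 0.05 4.63% higher and 1.1% lower, which is 1293 against 307 probes, with 933 against 514 when arrays were scaled by the median and 1061 against 492 after quantile normalization). With 2 samples against 2, an exact two-sided permutation test cannot give a p below 0.33. As the labels do not say whether replicates came from separate sorts, the p-values measure the spread between these samples.

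*Reg3b* had processed intensities of 762.1 ± 76.2 units in IEL replicate 1, 114.9 ± 11.6 in IEL replicate 2, and 41.5 ± 4.39 (replicate 1) and 51.1 ± 5.36 (replicate 2) on the SPL arrays. Its normalized levels were 1.29, -1.92, -3.53 and -3.57, and the SPL replicates were almost equal. The groups differed by 3.23 ± 1.11 (SE) on the log2 scale, or 9.40-fold (limma, adjusted p 0.634). As with *Reg3g*, IEL replicate 1 was far above IEL replicate 2 (3.21 log2 units, 9.25-fold). Both genes were well above background on all 4 arrays, CD8αβ+ SPLs included. Of the 153 negative control spots, 0 were brighter than either probe on 3 arrays, and on the array of SPL replicate 2 it was 1, a spot of 2890 units that stands alone.

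*Reg1*, whose product is known as a protein of pancreatic juice, was dimmer and more even between replicates. Its processed intensity was 39.6 ± 4.26 units in IEL replicate 1, 34.6 ± 3.77 in IEL replicate 2, and 10.7 ± 1.76 (replicate 1) and 11.3 ± 2.02 (replicate 2) on the SPL arrays. The normalized levels were -2.98 and -3.65 in CD8αβ+ IELs and -5.49 and -5.74 in CD8αβ+ SPLs, so the replicates of each group lay within 0.67 log2 units of each other. The groups differed by 2.30 ± 0.33 (SE) on the log2 scale, or 4.92-fold, with an unadjusted p of 0.00161 and an adjusted p of 0.634 from limma. It was well above background on all 4 arrays.

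*Reg3a*, a further member of the RegIII group, was marked as well above background on each IEL array and on neither SPL array. Its processed intensity was 22.6 ± 2.73 units in IEL replicate 1, 8.17 ± 1.71 in IEL replicate 2, and 2.54 ± 1.41 (replicate 1) and 2.83 ± 1.67 (replicate 2) on the SPL arrays. On the array of IEL replicate 2, 1 of the 153 negative control spots was brighter than its probe. Against the lowest signal that was well above background on the SPL arrays, the mean of *Reg3a* was at least 2.96-fold higher in CD8αβ+ IELs. This bound holds for the processing used here only, does not take in the spread of the IEL arrays, and was 1.48-fold on slide 2. The fitted difference was 2.89 ± 0.70 (SE) on the log2 scale, which is no bound, with an adjusted p of 0.634 from limma.

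*Reg4* was well above background on 1 of the 4 arrays, that of IEL replicate 1. Its processed intensity was 154.3 ± 15.5 units there, against 6.55 ± 1.71 in IEL replicate 2, and 2.46 ± 1.44 (replicate 1) and 2.01 ± 1.65 (replicate 2) on the SPL arrays. *Reg4* thus had a measured level in IEL replicate 1 alone. Since no group had both arrays well above background, *Reg4* was not tested.

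*Reg2* and *Reg3d* had no signal to compare. Neither was well above background on any array, and their processed intensities were between 1.39 and 1.63 units, where the median of the negative control spots was between 1.48 and 1.69 units. At least 90 of the 153 negative control spots were brighter than either probe on each array. Their scaled levels (for *Reg2*, -7.68 and -8.10 in CD8αβ+ IELs and -8.40 and -8.54 in CD8αβ+ SPLs) followed the 75th percentile of the arrays, which lay between 312 and 605 units, and not the intensity of the spot, and no fold is given.

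**Figure D1:**
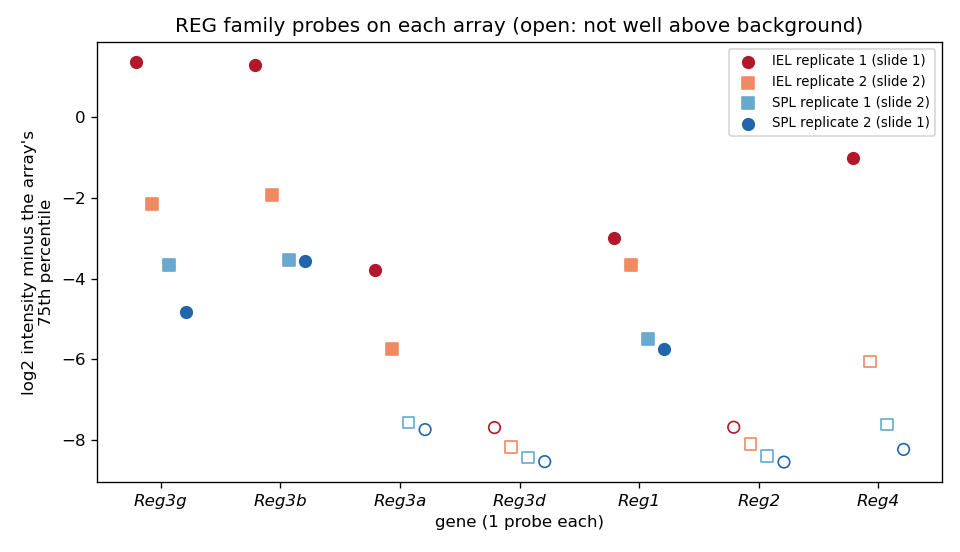
Normalized level (log2 intensity minus the 75th percentile of the array) of the 7 REG probes on each of the 4 arrays, with filled symbols for spots well above background, open symbols for the others, circles for slide 1 and squares for slide 2. *Reg3g* and *Reg3b* are 3.51 and 3.21 log2 units higher in IEL replicate 1 than in IEL replicate 2, *Reg4* is filled in IEL replicate 1 alone, *Reg1* is 0.67 log2 units apart between them, and *Reg2* and *Reg3d* are open on all arrays.

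Of the 7 members, 5 were well above background on at least 1 array of CD8αβ+ IELs, 4 on both, and 3 on both arrays of CD8αβ+ SPLs. The filter on dim probes left 4 of the 7 for the test, *Reg1*, *Reg3a*, *Reg3b* and *Reg3g*, and 0 of these passed the adjusted threshold of 0.05 in limma. *Reg3a* passed the filter through CD8αβ+ IELs only. For all 7 members each IEL array exceeded each SPL array, which for *Reg2* and *Reg3d* rests on the scaling, where 24.4% of the probes tested had this pattern and 24.6% the opposite one. *Reg2*, *Reg3d* and *Reg4* were not among the probes tested, so these shares cover only probes that passed the filter. The median of the log2 differences was 2.89 over the 7 members, spots without signal included, which is the value of *Reg3a* and no bound. It was -0.001 over all probes tested, and 0.154 over all probes with no filter on dim probes. Under a normexp background correction with an offset of 50 units, the log2 fold change turned to -0.69 for *Reg1*, -0.93 for *Reg3a* and -0.64 for *Reg4*, and it was 0.64 for both *Reg3b* and *Reg3g*, where the median of all probes was -0.38. In RNA of sorted cell pools, more cells of a type and more RNA per cell cannot be told apart.

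Within each slide, the REG genes differed by unlike amounts. On slide 1 the log2 difference between CD8αβ+ IELs and CD8αβ+ SPLs was 2.76 for *Reg1* (6.77-fold), 4.85 for *Reg3b* (28.9-fold) and 6.18 for *Reg3g* (72.7-fold), and it was at least 5.92-fold for *Reg3a* and at least 40.3-fold for *Reg4*. On slide 2 it was 1.84 for *Reg1* (3.57-fold), 1.61 for *Reg3b* (3.05-fold) and 1.51 for *Reg3g* (2.84-fold), and at least 1.48-fold for *Reg3a*. *Reg4* was not well above background on either array of slide 2. The order of *Reg1*, *Reg3b* and *Reg3g* on slide 1 was thus turned on slide 2, where the 3 genes lay within a narrow range. Of the 7 members, 5 were at least 2-fold higher in measured level on each slide, among them *Reg3a* and *Reg4* with spots not well above background, against 11.8% of the probes tested on slide 1, 2.46% on slide 2 and 1.79% on both. *Reg2*, *Reg3d* and *Reg4* were not among the probes tested. With 1 array of each group per slide, whether the slides differ was not tested.

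**Figure D2:**
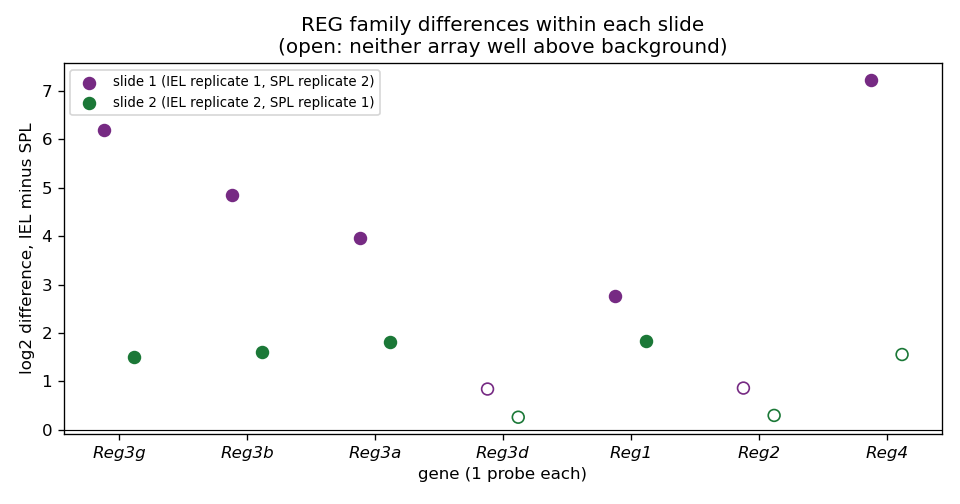
Log2 difference between CD8αβ+ IELs and CD8αβ+ SPLs for each REG probe, from the 2 arrays of slide 1 and from the 2 arrays of slide 2, with open circles where neither array was well above background. The differences of *Reg1*, *Reg3b* and *Reg3g* run from 2.76 to 6.18 on slide 1 and from 1.51 to 1.84 on slide 2.

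Without IEL replicate 2, *Reg1*, *Reg3b* and *Reg3g*, which were well above background on all 4 arrays, passed the threshold. The log2 fold change was then 2.63 for *Reg1* (adjusted p 0.00944 from limma, 0.209 to 1 under the other settings), 4.84 for *Reg3b* (0.00429, 0.462 to 1) and 5.60 for *Reg3g* (0.00901, 0.248 to 1). *Reg3a* and *Reg4* entered this setting through IEL replicate 1 only, with SPL spots not well above background, and their bounds are those given for slide 1. In this setting 9.1% of 28439 probes were called higher and 10.3% lower, which takes the spread of the remaining IEL array to be that of the SPL replicates. Without IEL replicate 1, the log2 fold change was 1.96 for *Reg1*, 1.63 for *Reg3b* and 2.09 for *Reg3g*, and 0 of these 3 passed, with adjusted p of 0.516 to 0.674 from limma.

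**Figure D3:**
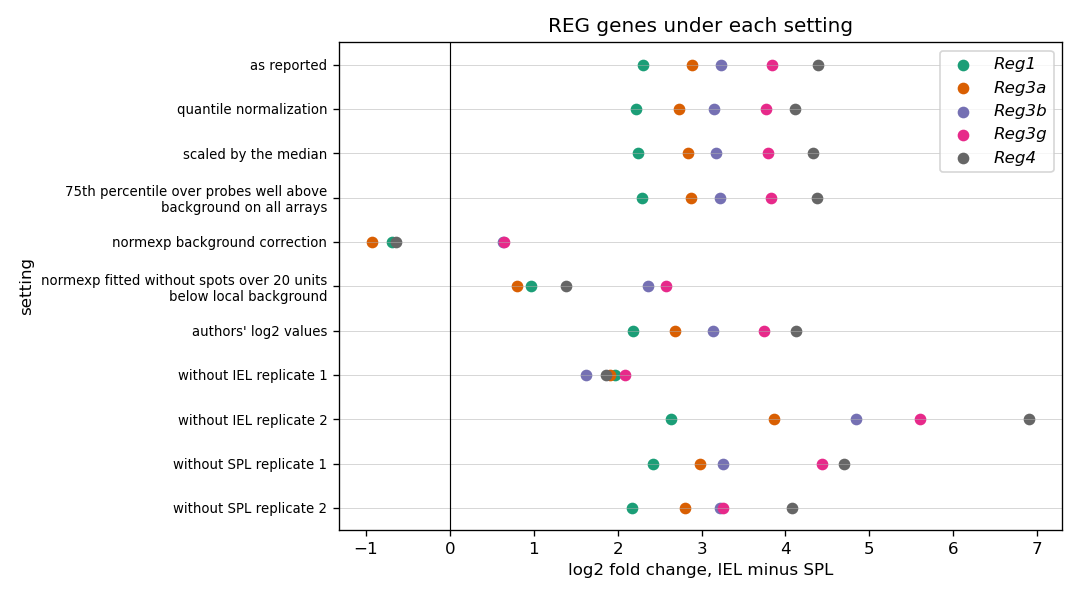
Measured log2 difference of the 5 REG genes with signal on at least 1 array, as reported and under each setting that can move it, including each sample left out in turn. *Reg1*, *Reg3a* and *Reg4* are below 0 under the first normexp background correction, and leaving out IEL replicate 1 brings *Reg1*, *Reg3b* and *Reg3g* to between 1.63 and 2.09. The SPL spots of *Reg3a* and *Reg4*, and the spot of *Reg4* in IEL replicate 2, were not well above background, so their points are no measured folds.

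The summed levels of markers of other intestinal cells had the same order over the arrays as that of the REG genes, though not each marker did. The 8 genes of intestinal T cells had this order too, with 942 and 336 on the IEL arrays and 163 and 62 on the SPL arrays. The summed level of the 7 REG genes, as intensity over the 75th percentile of the array, was 5.72 in IEL replicate 1, 0.611 in IEL replicate 2, and 0.205 (replicate 1) and 0.152 (replicate 2) on the SPL arrays. The sum of 10 measured Paneth cell markers fell in the same order of arrays, from 708 to 16.3, 9.46 and 5.34, and that of 8 goblet cell markers from 39.1 to 4.56, 1.65 and 0.326. For 9 markers of epithelial cells in general the sums were 23.4, 3.78, 1.64 and 0.475, for 12 enterocyte markers 5.77, 2.78, 1.44 and 0.726, and for 8 enteroendocrine markers 5.28, 0.958, 0.421 and 0.168. The number of these markers well above background in IEL replicate 1 was 10 of 10 for Paneth cells, 8 of 8 for goblet cells, 9 of 9 for epithelial cells, 11 of 12 for enterocytes and 7 of 8 for enteroendocrine cells. In SPL replicate 2 it was 6, 7, 8, 8 and 3. Each IEL array exceeded each SPL array for 8 of 9 tested Paneth cell markers, 7 of 7 goblet, 8 of 8 epithelial, 9 of 11 enterocyte and 6 of 7 enteroendocrine cell markers. Over all probes tested, 24.4% had this pattern and 24.6% the opposite one. *Lyz1*, a lysozyme of Paneth cells, had levels of 4.66 and 1.97 in CD8αβ+ IELs and of 2.30 and 2.35 in CD8αβ+ SPLs. It had the highest level of the Paneth cell markers on every array but that of IEL replicate 1, where *Defa20* had 7.67. The Paneth cell sums thus rest on different genes on different arrays. *Lct*, the lactase of enterocytes, had -4.99 and -4.38 against -4.81 and -4.28, and the enterocyte genes *Alpi*, *Apoa1* and *Apoa4* were, like *Lct*, higher in IEL replicate 2 than in IEL replicate 1. The defining marker *Slc5a1* of enterocytes and *Neurod1* of enteroendocrine cells were dim, with no array well above background. *Spdef*, a goblet cell marker that was not tested, had -3.82 and -6.59 in CD8αβ+ IELs and -7.07 and -6.14 in CD8αβ+ SPLs. These groups overlapped, and its spot was well above background in IEL replicate 1 and SPL replicate 2 only. *Pla2g2a* and *Elf3*, also not tested and with signal in IEL replicate 1 alone, had each IEL array above each SPL array. The part of these cells in the REG values was not tested.

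For the pancreas, the other known source of REG proteins, 15 of 16 acinar cell markers had a probe. The sums were 6.04 in IEL replicate 1, 3.14 in IEL replicate 2, and 2.55 (replicate 1) and 2.00 (replicate 2) on the SPL arrays, with 10, 9, 9 and 10 markers well above background. Each IEL array exceeded each SPL array for 8 of the 9 tested acinar cell markers and was below each for 1, *Prss2*, against 24.4% and 24.6% of all probes tested. The median log2 difference of the 9 was 0.439, and that of *Cela1*, an elastase, was 2.86. *Cpa1*, *Cela2a*, *Pnlip*, *Amy2a* and *Gp2*, which encode digestive enzymes and a granule membrane protein of acinar cells, were dim, with no array well above background. *Clps*, which encodes colipase, had levels of 1.18, -2.64, -3.50 and -3.95 on the 4 arrays in the same order.

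**Figure D4:**
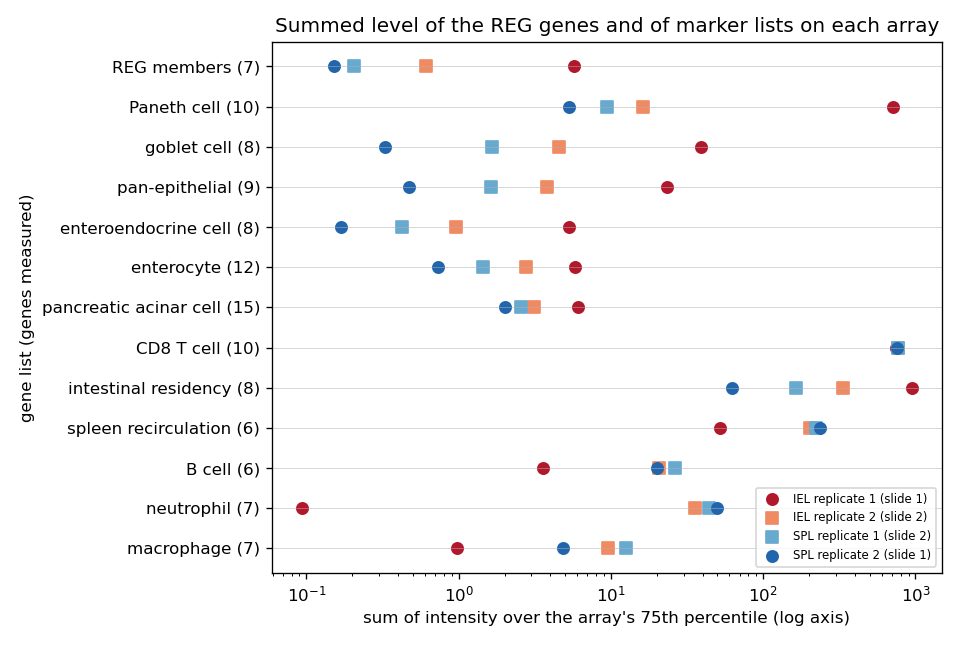
Summed level (intensity over the 75th percentile of the array, log axis) of the 7 REG genes and of each marker list on the 4 arrays, with the number of genes measured in parentheses. The REG genes and Paneth, goblet, epithelial, enteroendocrine, enterocyte and acinar cell lists are highest in IEL replicate 1 and lowest in SPL replicate 2. The list of intestinal T cell genes (intestinal residency) is likewise highest in IEL replicate 1 and lowest in SPL replicate 2. The neutrophil list is 0.0941 in IEL replicate 1 and 35.6 to 49.7 on the other arrays.

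Genes that act upstream of REG genes, or as receptors of REG proteins, did not move one way. Of 27 listed genes, 22 were tested and 0 passed the adjusted threshold in limma. Among the 22, each IEL array exceeded each SPL array for 5 and was below each for 10, against 24.4% and 24.6% of all probes tested. The median log2 fold change of these 22 was -0.081. The 10 were *Il6*, *Tlr2*, *Il1b*, *Il6ra*, *Il10rb*, *Il17ra*, *Il6st*, *Jak1*, *Traf6* and *Socs3*. *Il6* and *Il1b*, which encode cytokines, had log2 fold changes of -2.10 and -1.49. Those of *Tlr2*, a sensor of bacterial lipoproteins, and *Il6ra*, the IL-6 receptor, were -1.80 and -1.44. In the order *Il6*, *Il1b*, *Tlr2* and *Il6ra*, the differences were -3.84, -2.62, -3.32 and -2.725 on slide 1. On slide 2 they were -0.35, -0.35, -0.29 and -0.16. The spot of *Il6* in IEL replicate 1 was not well above background. Its mean and slide 1 values are thus no measured folds. The 5 were *Il22*, *Il22ra1*, *Il17rc*, *Stat3* and *Tyk2*. *Il22*, which encodes the main inducer of *Reg3b* and *Reg3g*, had normalized levels of -2.26 and -4.21 in CD8αβ+ IELs and -4.83 and -7.22 in CD8αβ+ SPLs, and it was well above background on 1 of the 2 SPL arrays. *Il22ra1*, the receptor chain that makes epithelial cells responsive to IL-22, had -2.34 and -2.56 against -3.49 and -3.88, a log2 fold change of 1.23. *Stat3*, the transcription factor downstream of this receptor, had 6.69 and 5.13 against 4.72 and 4.47. *Il17a* and *Il23r* were dim, with no array well above background. *Myd88*, the adaptor of bacterial sensing, had a log2 fold change of -0.01 on levels between 2.51 and 2.67. *Extl3*, a proposed receptor of REG proteins, had levels of 1.83 and 2.54 in CD8αβ+ IELs and of 2.48 and 2.43 in CD8αβ+ SPLs, and these groups overlapped.

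Epithelial genes that are known to respond to IL-22 or STAT3, as *Reg3b* and *Reg3g* do, were split as well. Of 18 listed genes 14 were tested and 0 passed the adjusted threshold in limma. Each IEL array was above each SPL array for 5 of the 14 and below for 4, against 24.4% and 24.6% of all probes tested. The median log2 fold change of the 14 was -0.216. *Pigr*, the receptor that carries IgA across the epithelium, had levels of -1.50 and -4.93 in CD8αβ+ IELs and of -6.27 and -7.29 in CD8αβ+ SPLs, neither of which was well above background. *Fut2*, an epithelial fucosyltransferase, had -1.37 and -3.18 against -4.12 and -3.53, a log2 fold change of 1.55. The other 3 of the 5 were *Saa1*, *Duox2* and *Muc4*. *S100a8*, *S100a9* and *Lcn2*, which neutrophils express too, had log2 fold changes of -4.97, -4.87 and -2.74, with differences on slide 1 of -9.50, -9.46 and -5.03 and on slide 2 of -0.45, -0.27 and -0.46, and *S100a8* and *S100a9* are in the neutrophil list too. The spots of *S100a8* and *Lcn2* in IEL replicate 1 were not well above background. The mean and slide 1 values of both genes are thus no measured folds. *Duoxa2* was the other gene of the 4.

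The probes whose pattern over the 4 arrays was most like that of *Reg3g* were found by the root mean square distance between log2 levels, each centered on its own mean. The 10 nearest genes outside the family were *Pigr*, *Muc13*, *Krt18*, *Chga*, *Krt19*, *Asns*, *Agr2*, *Tspan1*, *Calml4* and *Mmp7*, at distances of 0.153 to 0.300 log2 units. *Krt18*, a keratin of simple epithelia, had levels of 2.86 and -0.56 in CD8αβ+ IELs and -1.84 and -3.50 in CD8αβ+ SPLs. For *Reg3b* the 10 nearest were *Muc3*, *Trim46*, *Clps*, *Trib3*, *Phgr1*, *Tmem54*, *Slc51a*, *Plk5*, *Krt7* and *Kcne3*, at distances of 0.197 to 0.369. Among the nearest genes, *Pigr*, *Muc13*, *Calml4* and *Slc51a* had SPL spots that were not well above background on either array. *Reg3b* and *Reg3g* were 0.516 apart, *Reg3a* and *Reg3b* 0.480, and *Reg1* and *Reg3g* 1.31. The genes outside the family were chosen as the nearest of 27911 probes, so their distances cannot be set against those within the family. These distances describe 4 arrays and have no test.

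The upstream sequences of *Reg3b* and *Reg3g* are shown because these are the members with the brightest probe signal in CD8αβ+ IELs and the pair most similar in this region. The 250 bases before the annotated start are from RefSeq on GRCm38.p6, 5′ to 3′ on the strand of the gene, at chr6:78370635-78370884 (plus strand) for *Reg3b* and chr6:78468875-78469124 (minus strand) for *Reg3g*. Capitals mark matches to the TATA-like motif TATAAAA and to the STAT-like motif TTCNNNGAA, each searched on both strands, and the motifs do not overlap.
Reg3b: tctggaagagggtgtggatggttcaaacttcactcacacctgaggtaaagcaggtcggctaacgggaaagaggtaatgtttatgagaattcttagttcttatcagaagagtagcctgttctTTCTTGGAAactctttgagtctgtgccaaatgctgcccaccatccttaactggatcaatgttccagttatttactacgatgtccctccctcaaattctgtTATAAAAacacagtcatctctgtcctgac
Reg3g: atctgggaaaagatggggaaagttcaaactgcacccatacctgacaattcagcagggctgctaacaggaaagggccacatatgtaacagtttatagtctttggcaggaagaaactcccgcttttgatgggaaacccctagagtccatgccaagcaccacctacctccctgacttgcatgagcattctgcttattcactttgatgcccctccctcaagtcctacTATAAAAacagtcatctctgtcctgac
The TATA-like motif began 29 bases before the start in *Reg3b* and 27 bases before it in *Reg3g*, and 30 bases before it in both *Reg1* and *Reg2*. It was found in 4 of the 7 REG windows and in 4.98% of the 32851 windows of the same length in the table. The STAT-like motif, which reads the same on both strands, was found in *Reg3b* (129 bases before the start) and *Reg3d* (238 bases before it), and in 7.02% of all windows. *Reg2* and *Reg3d*, whose probes had no signal, thus each hold 1 of these motifs. The windows of *Reg3b* and *Reg3g* were 68.9% identical in a global alignment, against 47.8% to 58.5% for the other 20 pairs of REG genes. The longest run that these 2 genes share is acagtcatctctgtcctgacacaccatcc, 29 bases that begin 20 bases before the start and end 9 bases after it, where the other pairs share runs of 6 to 14 bases. All 7 genes had a window in the table, and a motif match is a description of the letters only.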

How the data were processed

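RNA from 2 samples of each group was hybridised to 4 arrays of 1 color. The deposited scanner files, written by Agilent Feature Extraction 10.7.3.1 according to their headers (10.7.1.1 in the submitters' processing notes), give for each spot an intensity from which the background of the array was subtracted, not normalized between arrays, with its error, the mean intensity and the local background. The methods of the paper name other chips and no normalization. The authors also deposited log2 values that are equalized between arrays. Here, log2 intensity minus the 75th percentile of each array over 43379 non-control spots was used. Spots with an outlier mark (98 to 179 per array) were left out, repeat spots were averaged to 41174 probes, and 0 spots were saturated. From 63.6% to 69.6% of probes were well above background, and 27911 that were so on every array of at least 1 group, with a value on all 4 arrays, were tested with limma 3.58.1 in R 4.3.3 without a block, with 2 residual degrees of freedom and Benjamini-Hochberg adjustment over all probes (threshold 0.05). For genes with several probes, the one with the highest mean level among those tested was used. A bound ("at least") uses the lowest signal well above background on each SPL array in place of a dimmer probe. For arrays, signal over background and the number of arrays limit the precision.

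The genes named are all REG genes, the upstream and target lists, the marker lists and the 10 nearest probes. Members, lists and alternatives were chosen with earlier results of these data known. Probe positions are those of mm9 in the scanner files. Alignments used Biopython 1.88. The alternatives are those given with the dependence on processing. The values of 1 acinar cell marker are not reported here and are left out of its list. The remaining assays of the study were not used here.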

Additional observations from a re-analysis of the deposited data

How the results depend on the processing

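The direction of *Reg3b* and *Reg3g* was kept under all alternatives run, and that of *Reg1*, *Reg3a* and *Reg4* under all but 1. Of these, only other scalings or background corrections, the authors' log2 values and samples left out could change the log2 differences. The blocks, filters, thresholds, forms of the test and the mean over probes could not. The normexp background correction with an offset of 50 units reversed the log2 difference to -0.69 for *Reg1*, -0.93 for *Reg3a* and -0.64 for *Reg4*, with a family median of -0.69, and gave -1.07 for *Reg2* and -1.11 for *Reg3d*, which have no signal and no direction, where the median of all probes was -0.38; *Reg3b* and *Reg3g* had 0.64 each. Fitted without spots over 20 units below their local background, it gave 0.96 for *Reg1*, 0.80 for *Reg3a*, 2.37 for *Reg3b*, 2.58 for *Reg3g*, 1.38 for *Reg4* and a family median of 0.96. The cause was not tested. Leaving out each sample in turn gave 1.96 to 2.63 for *Reg1*, 1.91 to 3.86 for *Reg3a*, 1.63 to 4.84 for *Reg3b*, 2.09 to 5.60 for *Reg3g*, 1.87 to 6.90 for *Reg4*, 1.87 to 3.86 for the family median, and 0 to 2589 probes called higher and 0 to 2932 lower, the upper counts without IEL replicate 2. The values of *Reg3a* and *Reg4* here are set against spots not well above background, and without IEL replicate 1 *Reg4*, whose 1.87 is then also the family median, had no array with signal. Under every other alternative 0 probes passed the adjusted threshold, in limma or in the methods' unpaired t-test where that took its place. The counts at an unadjusted p under 0.05 varied, with 1293 higher and 307 lower as reported. In limma they were 933 and 514 scaled by the median, 1061 and 492 after quantile normalization, and 502 and 28 after normexp. By the methods' unpaired t-test they were 470 and 349. Replicate numbers gave no pairing of samples (correlation of deviations -0.025). A block on the replicate number or the slide cannot change a log2 fold change in this balanced design, only its error. With the replicate number as a block 0 probes were called in either direction, with adjusted p of 0.209 for *Reg1* and 0.248 for *Reg3g* from limma. The slide as a block left 0 called as well. Depth of signal limits *Reg2*, *Reg3d* and *Reg4*.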
